A study of Mus musculus with 16 samples.

Results

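Polyamines are small, positively charged molecules that growing cells make in large amounts, and their level is held in check by fast turnover of the enzymes that make them. Ornithine decarboxylase, encoded by Odc1, turns ornithine into putrescine. Spermidine synthase (Srm) and spermine synthase (Sms) then add aminopropyl groups supplied by S-adenosylmethionine decarboxylase (Amd1). Antizymes (Oaz1, Oaz2) bind ornithine decarboxylase and send it to the proteasome, antizyme inhibitor 1 (Azin1) frees it from antizyme, and spermidine/spermine acetyltransferase (Sat1), spermine oxidase (Smox) and polyamine oxidase (Paox) run the pathway backwards. Odc1 is a textbook target of MYC family proteins, and the pathway is known for its part in neuroblastoma with MYCN amplification. Expression of these 10 genes was examined by symbol, out of 24411 genes in the count and TPM tables, and all 10 were among the 16665 genes that passed the filter on low counts.

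RNA was sequenced from 16 mouse libraries in 5 groups. Of these, 12 were celiac ganglia of 2-week-old mice and 4 were tumors of mice whose age the labels do not give. The ganglia came from mice without the transgene and 2 copies of Runx1t1 (Th-MYCN-/-; Runx1t1+/+, n = 4), without the transgene and labelled heterozygous for Runx1t1 (Th-MYCN-/-; Runx1t1+/-, n = 3), homozygous for the transgene with 2 copies of Runx1t1 (Th-MYCN+/+; Runx1t1+/+, n = 3), and homozygous for the transgene and labelled heterozygous (Th-MYCN+/+; Runx1t1+/-, n = 2). The tumors were Th-MYCN+/+; Runx1t1+/+. Th-MYCN mice carry human MYCN under the tyrosine hydroxylase promoter, which drives it in catecholaminergic cells including those of the sympathetic ganglia, and Runx1t1+/- mice carry 1 insertionally inactivated allele. The comparisons address whether the transgene, tumor formation and the loss of a Runx1t1 copy change gene expression. The human transgene has no row of its own in the tables. Each ganglion or tumor is bulk tissue, so fewer cells of a type and less RNA per cell cannot be told apart. Nothing in the labels says which libraries come from separate animals, so p-values measure the spread between these libraries.

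Total expected counts ran from 10692299 to 38618757 per library. Paox, the lowest of the 9 genes other than Amd1, had 81 to 388 counts. Both MYCN labelled-het ganglia were of low depth (14221960 and 12367963 counts), and all tumors were deeper (27096032 to 38618757 counts). Depth therefore differed along with group in that comparison. Runx1t1 RNA did not separate the labelled genotypes in transgene-free ganglia, with 2.78 to 4.41 TPM in the wild-type and 4.36 to 6.28 TPM in the labelled-het libraries, so the latter are called labelled het throughout. TPM gives each gene's share of all transcripts in a library, corrected for transcript length, and allows genes to be compared with each other. The 8 sympathetic neuron markers summed to 6926 to 22537 TPM in the 12 ganglia and to 1403 to 2346 TPM in the tumors, whereas the 7 glial markers summed to 451 to 1850 TPM in ganglia and 7.29 to 16.9 TPM in tumors. The 5 proliferation genes (Mki67, Top2a, Pcna, Mcm2, Ccnb1) summed to 1205 to 1429 TPM in tumors. Transgene-free wild-type replicate 2 held 627 TPM of lymphocyte markers, against 2.84 to 20.1 TPM in every other library, and tumor replicate 3 held 5300 TPM of liver markers, against at most 303 TPM elsewhere. Rn45s, the precursor of ribosomal RNA, took 8.57 to 12.8% of counts in tumors and 8.80% in MYCN wild-type replicate 1, against 2.15 to 5.64% in the other 11 ganglia. The part of these differences in cell types and ribosomal RNA in the results below was not tested.

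In tumors, 2 genes that make polyamines were higher, and 3 genes that control ornithine decarboxylase or reverse the pathway were lower. Compared with transgene-free wild-type ganglia, Srm was 5.75-fold and Odc1 4.18-fold higher in tumors, while Oaz2 was 1.76-fold, Smox 1.62-fold and Azin1 1.43-fold lower. Sms, Sat1, Paox and Oaz1 did not pass the test. In edgeR's quasi-likelihood test with Benjamini-Hochberg adjustment over all genes, 2 of the 10 genes were higher, where 27.0% of all genes tested were, and 3 were lower, where 30.7% of all genes were. The share of polyamine genes called was therefore near that of the whole transcriptome. The median log2 fold change of the 9 genes other than Amd1 was -0.28, beside -0.11 over all genes. The 5 calls held with each of the 8 libraries left out in turn, those with lymphocyte and liver markers included.

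Odc1 (ENSMUSG00000011179, mm10 chr12:17544794-17551505, plus strand, identifiers and positions from GENCODE vM21), the first and most tightly regulated step of the pathway, reached 79.9, 161, 115 and 94.9 TPM in the 4 tumors. In transgene-free wild-type ganglia it was at 33.8, 42.8, 39.3 and 27.9 TPM, and in the transgene-free labelled-het ganglia at 29.9, 24.4 and 27.5 TPM. Every tumor lay above every transgene-free ganglion. The means were 113 ± 35.3 TPM (SD, n = 4) in tumors and 35.95 ± 6.49 TPM (SD, n = 4) in transgene-free wild-type ganglia. The fitted log2 fold change was 2.06 with a standard error of 0.343 and an edgeR adjusted p of 0.000198, and the adjusted p ranged up to 0.00106 over 19 alternative settings.

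The MYCN wild-type ganglia spread over most of this range for Odc1, with 114, 35.98 and 71.1 TPM in replicates 1, 3 and 4. Replicate 1 lay within the range of the tumors and replicate 3 within that of the transgene-free ganglia. The MYCN labelled-het ganglia were at 31.6 and 47.4 TPM, and both lay below all tumors. Across the 5 MYCN ganglia, Odc1 followed the order of the summed proliferation genes, which stood at 1009, 107 and 539 TPM in the wild-type replicates 1, 3 and 4 and at 82.2 and 217 TPM in the labelled-het replicates 1 and 2. Among the transgene-free ganglia, the library with the most Odc1 (wild-type replicate 2, 42.8 TPM) was also the one with the most proliferation RNA, 278 TPM against 61.1 to 81.8 TPM in the others, and it is the library with lymphocyte markers. The part of proliferation in the Odc1 differences was not tested.

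**Figure D1:**
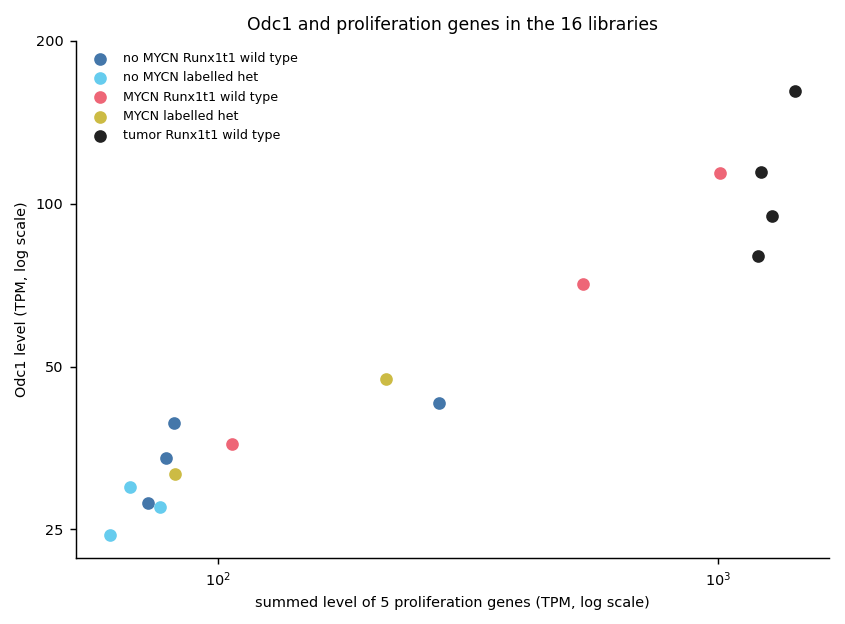
Odc1 level in each of the 16 libraries (points, TPM, log scale) against the summed level of 5 proliferation genes (TPM, log scale), coloured by group. The MYCN wild-type ganglia run from 35.98 TPM of Odc1 at 107 TPM of proliferation RNA to 114 TPM at 1009 TPM, next to the 4 tumors.

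The stretch just upstream of Odc1 is shown because Odc1 had the largest fold difference with the transgene among the 10 genes in wild-type ganglia. MYC family proteins bind E-boxes, preferring the letters CACGTG, and also take the variant CGCGTG, which reads as CACGCG on the opposite strand. The best known E-boxes of Odc1 lie in its first intron, outside this window. These bases are from RefSeq, build GRCm38.p6, plus strand, chr12:17544623-17544793, and ends at the base before the annotated gene. Capitals mark the matches to the variant on either strand.
Odc1 upstream: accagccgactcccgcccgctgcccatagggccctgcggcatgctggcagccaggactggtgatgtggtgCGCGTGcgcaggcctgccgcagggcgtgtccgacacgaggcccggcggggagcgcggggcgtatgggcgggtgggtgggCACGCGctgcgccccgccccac
The matches begin 180 and 101 bases upstream of the RefSeq start site. CACGTG was not found in the 300-base window of Odc1, which says only that these letters are not there. Windows were matched for 8 of the 10 genes, all but Srm and Azin1. CACGTG was found in 1 of them (Sms, 196 bases upstream of 1 of its start sites) and in 7.15% of 32851 windows of the same length. The variant was found in 3 (Odc1, Oaz1 and Sms) and in 9.27% of all windows. Paox and Sms had more than 1 window, so counts of genes and shares of windows are unlike measures. The variant itself holds CG, and the windows with it had 42 (Odc1), 38 (Sms) and 29 (Oaz1) CG pairs. Other windows of these genes had at most 27, and the part of base content in the matches was not tested. Both strands were searched. A match is a description of the letters and not evidence of binding.

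Srm (ENSMUSG00000006442, chr4:148591503-148594993, plus strand), which joins the first aminopropyl group to putrescine to give spermidine, reached 121, 239, 265 and 273 TPM in tumors. It was at 68.9, 50.7, 44.2 and 46.5 TPM in transgene-free wild-type ganglia and at 61.7, 45.3 and 63.5 TPM in labelled-het ones. The lowest tumor, replicate 1, was still above all 12 ganglia. The mean was 224 ± 70.6 TPM (SD, n = 4) in tumors and 52.6 ± 11.2 TPM (SD, n = 4) in transgene-free wild-type ganglia. The log2 fold change was 2.52 with a standard error of 0.300 and an edgeR adjusted p of 1.71e-05. The MYCN wild-type ganglia held 105, 53.0 and 82.1 TPM in replicates 1, 3 and 4, and the MYCN labelled-het ganglia 50.3 and 75.7 TPM. As with Odc1, replicate 1 was the highest and replicate 3 the lowest of the wild-type ganglia.

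Sms (ENSMUSG00000071708, chrX:157443855-157492287, minus strand), which makes spermine from spermidine, did not follow Srm. It ranged from 107 to 128 TPM in tumors and from 79.2 to 164 TPM in transgene-free wild-type ganglia, so the groups overlapped. Its log2 fold change was 0.23 with a standard error of 0.172 (edgeR adjusted p = 0.258). The level of Srm relative to Sms was 1.93 ± 0.574 (SD, n = 4) in tumors, with the lowest tumor at 1.09. It was 0.425 ± 0.153 (SD, n = 4) in transgene-free wild-type ganglia, none of which exceeded 0.639. Among MYCN wild-type ganglia the ratio was 0.866, 0.388 and 0.535 in replicates 1, 3 and 4. Srm RNA thus exceeded Sms RNA in every tumor and in no ganglion.

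**Figure D2:**
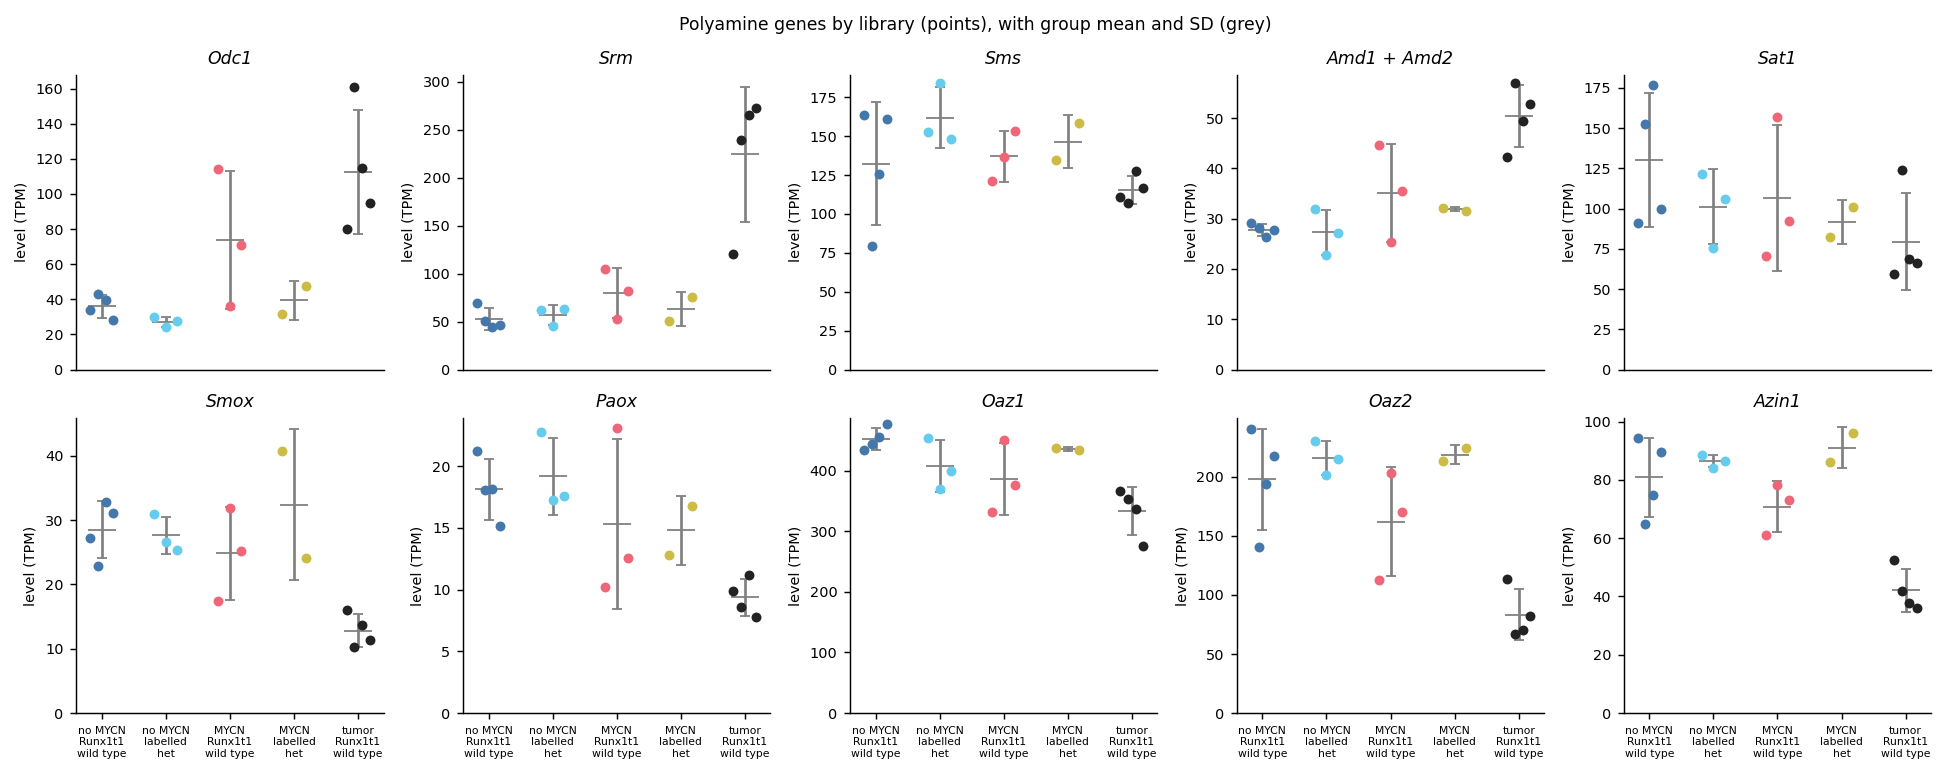
Levels of the polyamine genes in TPM (vertical axes, each from 0) for every library (points) in the 5 groups, with the group mean and SD in grey and with Amd1 and Amd2 added together. By mean TPM, Odc1, Srm and the Amd sum are highest in tumors, and Smox, Oaz2, Azin1, Paox, Oaz1, Sms and Sat1 are lowest there. On the scale of the test, counts scaled to library size, mean Sms is 208 in tumors and 177 in transgene-free wild-type ganglia.

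Amd1 (ENSMUSG00000075232, chr10:40287458-40302186, minus strand) makes the aminopropyl donor, and its counts could not be read alone. The genome holds a near-identical copy, Amd2 (ENSMUSG00000063953, chr10:35708675-35711892, minus strand). Their reading frames of 1005 bases, taken from GENCODE vM21 transcripts, differ at 1 position, G796C, counted from the first base of the start codon with the base of Amd1 first. The stretch from position 742 to 801 of both frames is shown because it holds the only coding base that tells a read of Amd1 from one of Amd2, in capitals.
Amd1: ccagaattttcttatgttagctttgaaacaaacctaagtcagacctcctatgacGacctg
Amd2: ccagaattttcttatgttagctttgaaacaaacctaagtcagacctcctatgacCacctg
The frames are identical over the 795 bases before it, and reads were 100 bases long, so most coding reads fit both genes and their assignment rests on an estimate. Of the transcripts, 3204 and 3218 bases long, 3190 bases match in shared order.

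In 14 of the 16 libraries nearly all counts were assigned to 1 of the copies. Amd1 held 499 of the counts against 2.93 for Amd2 in transgene-free labelled-het replicate 1, and 539 against 4.69 in MYCN labelled-het replicate 1. In tumor replicate 4 the counts were 1667 for Amd1 and 1560 for Amd2, and in tumor replicate 2 they were 334 and 3176. In the other 12 libraries Amd1 had at most 0.04 counts. These 12 include all 7 ganglia of wild-type Runx1t1, 3 labelled-het ganglia and 2 tumors, so the assignment did not follow the groups. No fold change of Amd1 alone is given.

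Added together, a choice made after seeing the data, Amd1 and Amd2 were at 42.3, 57.0, 49.5 and 52.8 TPM in tumors and at 29.1, 28.2, 26.3 and 27.8 TPM in transgene-free wild-type ganglia. All tumors exceeded all of these ganglia. The sum was 2.42-fold higher in tumors, a log2 fold change of 1.28 with a standard error of 0.193 and an edgeR adjusted p of 9.61e-05, and between 0.00013 and 0.000536 with each library left out in turn. With the sum in place of Amd1, 6 of the 10 genes passed the test in tumors, where 57.7% of all genes did, so the share was near that of all genes. The sum was 1.85-fold lower in MYCN wild-type ganglia than in tumors (edgeR adjusted p = 0.00544) and 2.22-fold lower in MYCN labelled-het ganglia (edgeR adjusted p = 0.00189).

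**Figure D3:**
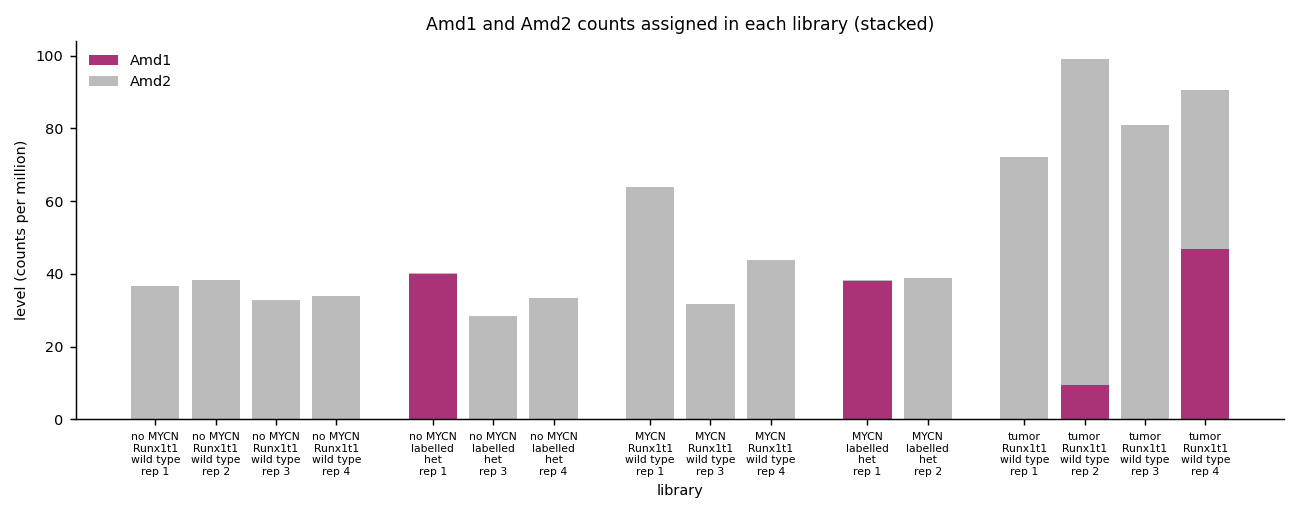
CPM, counts scaled to library size, assigned to Amd1 and Amd2 (stacked bars) in each of the 16 libraries, by group and replicate. The split between the copies jumps from library to library, while the height of the stack is 72.0 to 99.1 in tumors and 28.5 to 63.9 in ganglia.

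The antizymes behaved differently from each other. Oaz2 (ENSMUSG00000040652, chr9:65668001-65690300, plus strand) was at 114, 66.9, 70.3 and 82.5 TPM in tumors and at 240, 141, 194 and 218 TPM in transgene-free wild-type ganglia. On this scale the groups did not overlap, although on the scale of the test (CPM, counts scaled to library size and not to transcript length), tumor replicate 1 (106) was just above transgene-free wild-type replicate 2 (104). The log2 fold change was -0.82 with a standard error of 0.193 (edgeR adjusted p = 0.00266). Oaz1 (ENSMUSG00000035242, chr10:80826656-80829290, plus strand), the most abundant of the 10 genes in all 5 groups by mean TPM, had a log2 fold change of -0.00 with a standard error of 0.117 (edgeR adjusted p = 0.981). This result depended on the scale. In TPM, Oaz1 was at 277 to 367 in tumors and 434 to 477 in transgene-free wild-type ganglia, without overlap, and limma on log2(TPM + 1) gave -0.45 with an adjusted p of 0.00927. On that scale the median of all genes was at -0.36, against -0.11 in the main test, and calls split into 2950 higher and 6598 lower genes instead of 4494 and 5114. Relative to those medians Oaz1 moved little on either scale. Odc1, Srm, Oaz2, Azin1 and Smox kept their direction and their call on both scales.

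Azin1 (ENSMUSG00000037458, chr15:38487427-38519266, minus strand), which resembles ornithine decarboxylase and competes for antizyme, stood at 52.5, 42.0, 37.8 and 36.1 TPM in tumors. It was at 94.3, 64.7, 74.9 and 89.7 TPM in transgene-free wild-type ganglia, above every tumor, while in CPM tumor replicate 1 (140) exceeded transgene-free wild-type replicate 2 (139). Its log2 fold change was -0.52 with a standard error of 0.138 (edgeR adjusted p = 0.00572).

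The level of antizyme RNA per unit of Odc1 RNA, a ratio that does not depend on how libraries are scaled, differed widely between the groups. Oaz1 and Oaz2 together amounted to 6.02, 2.61, 3.56 and 3.78 TPM per TPM of Odc1 in tumors, 3.99 ± 1.45 (SD, n = 4). In transgene-free wild-type ganglia the ratio was 19.9, 13.7, 16.5 and 24.9, and in transgene-free labelled-het ganglia 22.8, 23.4 and 22.3. The lowest transgene-free ganglion, at 13.7, was well above the highest tumor. In MYCN wild-type ganglia it was 3.91, 18.2 and 7.69 in replicates 1, 3 and 4, and in MYCN labelled-het ganglia 20.6 and 13.9. Replicate 1 of the MYCN wild-type ganglia lay among the tumors, and replicate 3 and both labelled-het libraries lay among the transgene-free ganglia. Azin1 per Odc1 was 2.36 ± 0.782 (SD, n = 4) in transgene-free wild-type ganglia and 0.407 ± 0.174 (SD, n = 4) in tumors. Both ratios hold Odc1, which was already seen to differ, and no test was made of them.

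**Figure D4:**
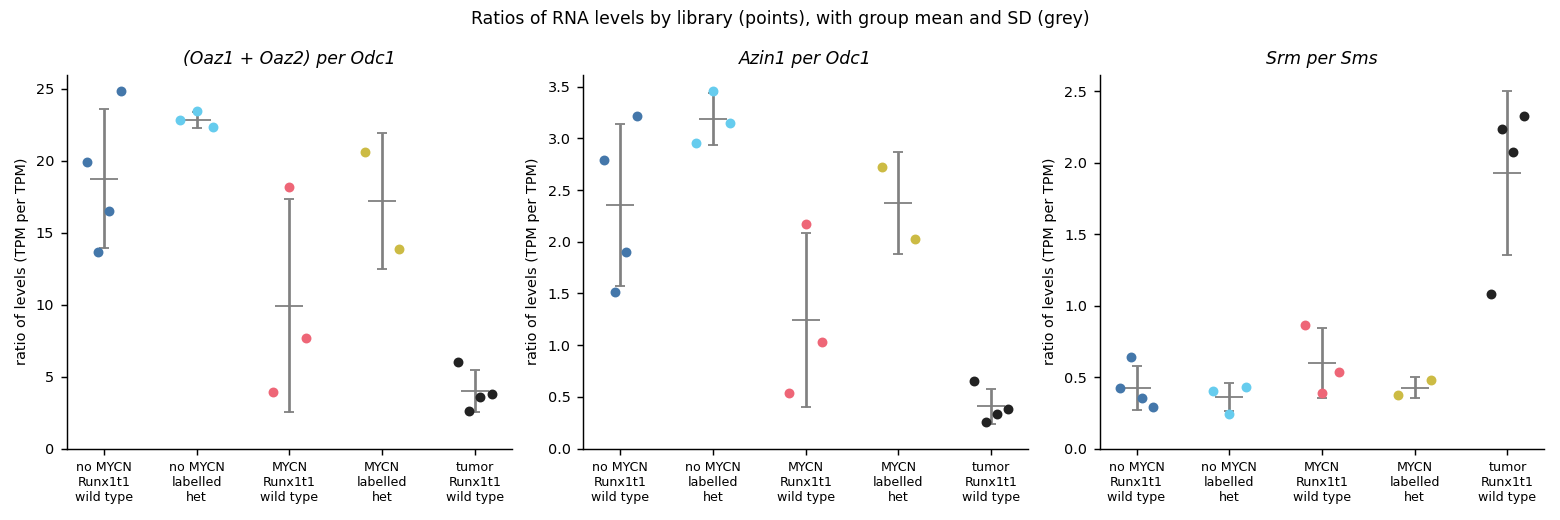
Ratios of RNA levels (TPM per TPM, axes from 0) in every library (points) with group mean and SD in grey, for both antizymes per Odc1, Azin1 per Odc1, and Srm per Sms. Tumors have 2.61 to 6.02 antizyme per Odc1, against 13.7 to 24.9 in the transgene-free ganglia.

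Of the genes that break polyamines down, only Smox passed the test. Smox (ENSMUSG00000027333, chr2:131491496-131525922, plus strand), which oxidises spermine back to spermidine, was at 16, 10.3, 13.7 and 11.3 TPM in tumors and at 27.2, 22.9, 32.9 and 31.1 TPM in transgene-free wild-type ganglia. The groups did not overlap. The log2 fold change was -0.69 with a standard error of 0.199 (edgeR adjusted p = 0.00878), and the adjusted p reached 0.0333 over the alternatives. Paox (ENSMUSG00000025464, chr7:140115799-140137224, plus strand), which oxidises acetylated polyamines, was at 7.77 to 11.2 TPM in tumors and 15.1 to 21.2 TPM in transgene-free wild-type ganglia. Its log2 fold change of -0.53 with a standard error of 0.242 missed the threshold in edgeR (adjusted p = 0.0731), although the groups did not overlap on either scale. Against all 7 transgene-free ganglia the edgeR adjusted p was 0.0387, and limma on log2(TPM + 1), where the median of all genes was at -0.36, gave -0.89 with an adjusted p of 0.00365.

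Sat1 (ENSMUSG00000025283, chrX:155213132-155216449, minus strand), whose acetyltransferase starts polyamine breakdown and export, varied within groups more than between them. It was at 59.5, 124, 68.4 and 66.1 TPM in tumors and at 90.9, 153, 177 and 99.6 TPM in transgene-free wild-type ganglia. The groups overlapped, with tumor replicate 2 above 2 of the 4 ganglia. The log2 fold change was -0.28 with a standard error of 0.310 (edgeR adjusted p = 0.455).

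The order of levels among the genes differed between ganglia and tumors. In transgene-free wild-type ganglia mean TPM fell from Oaz1 (453) through Oaz2 (198), Sms (132), Sat1 (130), Azin1 (80.9), Srm (52.6), Odc1 (35.95), Smox (28.5) and the Amd sum (27.8) to Paox (18.1). Neighbours from Oaz2 to Srm, and from Odc1 to the Amd sum, had overlapping ranges. In tumors the order was Oaz1 (334), Srm (224), Sms (116), Odc1 (113), Oaz2 (83.4), Sat1 (79.5), the Amd sum (50.4), Azin1 (42.1), Smox (12.8) and Paox (9.36). There the ranges of neighbours from Srm to Sat1 overlapped, as did those of the Amd sum and Azin1 and of Smox and Paox. Srm ranked 6 and Odc1 7 in the ganglia, against 2 and 4 in tumors.

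MYCN ganglia at 2 weeks were compared with the tumors next. In wild-type ganglia, Srm was 3.63-fold lower than in tumors and Smox 1.49-fold higher. These were 1 lower gene of 10, where 14.0% of all genes tested were lower, and 1 higher, where 20.5% were higher. The log2 fold change of Srm was -1.86 with a standard error of 0.325 (edgeR adjusted p = 0.000806), and no ganglion reached a tumor. Smox was at 17.4, 31.9 and 25.2 TPM in replicates 1, 3 and 4, and its log2 fold change of 0.58 with a standard error of 0.213 was just inside the threshold (edgeR adjusted p = 0.0484). Odc1, at -0.96 with a standard error of 0.365, was just outside it (edgeR adjusted p = 0.0548). Oaz2 (0.56, edgeR adjusted p = 0.0507) and Azin1 (0.36, edgeR adjusted p = 0.0745) were also just outside. Single libraries and settings decided these calls. Of 17 alternatives, 9 kept the Smox call and 8 lost it. A replicate block ended it (log2 fold change 0.47, edgeR adjusted p = 0.0769). So did a sex term (0.52, edgeR adjusted p = 0.103) and only the groups compared (0.59, edgeR adjusted p = 0.113). Without MYCN wild-type replicate 1 the log2 fold change of Odc1 was -1.53 and 4 of the 10 genes passed, where 40.6% of all genes did. Without replicate 3 or 4 only Srm passed, where 21.3% and 24.4% of all genes did. On log2(TPM + 1), where calls over all genes split into 4997 higher and 1206 lower instead of 3415 and 2340, limma called Srm, Smox, Oaz2 and Azin1. Without tumor replicate 1, 5 genes passed, where 35.6% of all genes did. Without any 1 of the other tumors only Srm passed, where 28.8 to 30.7% of all genes did.

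In the MYCN labelled-het ganglia, 5 genes differed from tumors. Odc1 was 4.00-fold and Srm 5.04-fold lower, 2 of 10 genes where 22.0% of all genes were lower. Oaz2 was 1.86-fold, Smox 1.82-fold and Azin1 1.54-fold higher, 3 of 10 where 23.5% of all genes were higher. For Odc1 the log2 fold change was -2.001 with a standard error of 0.448 (edgeR adjusted p = 0.00254), and for Srm -2.33 with a standard error of 0.392 (edgeR adjusted p = 0.00037). Smox was at 40.8 and 24.1 TPM, Oaz2 at 213 and 224 TPM, and Azin1 at 86.1 and 96.0 TPM in the ganglia. For all 5 genes both ganglia lay outside the range of the tumors. These genes were picked for passing on the same libraries, and the share of all genes that separate so was not counted. The edgeR adjusted p was 0.00905 for Smox, 0.00591 for Oaz2 and 0.00707 for Azin1. All 5 were also called by limma on log2(TPM + 1), where genes split into 5756 higher and 2230 lower instead of 3914 and 3668. Leaving out either of the 2 ganglia leaves a lone library, which is then assumed to vary like the other groups. Without replicate 1 the log2 fold change was -1.73 for Odc1 (edgeR adjusted p = 0.0506) and 0.54 for Smox (edgeR adjusted p = 0.19), and without replicate 2 it was 0.52 for Azin1 (edgeR adjusted p = 0.0863), so these calls were lost.

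These comparisons share the tumors, and the first shares them too, so the sets of called genes are not independent of each other. A threshold passed in 1 Runx1t1 genotype and missed in the other does not show a difference between genotypes, which was tested directly. Between MYCN labelled-het and MYCN wild-type ganglia, none of the 10 genes passed in edgeR, where 0.0120% of all genes did, and 1 had an unadjusted p under 0.05. That gene was Odc1, 2.05-fold lower in the labelled-het ganglia (log2 fold change -1.04, standard error 0.442, edgeR adjusted p = 0.379). Without MYCN wild-type replicate 1 its log2 fold change was -0.47. DESeq2 called 1 gene, Amd1, whose counts there rest on 1 library, and limma on TPM called none.

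**Figure D5:**
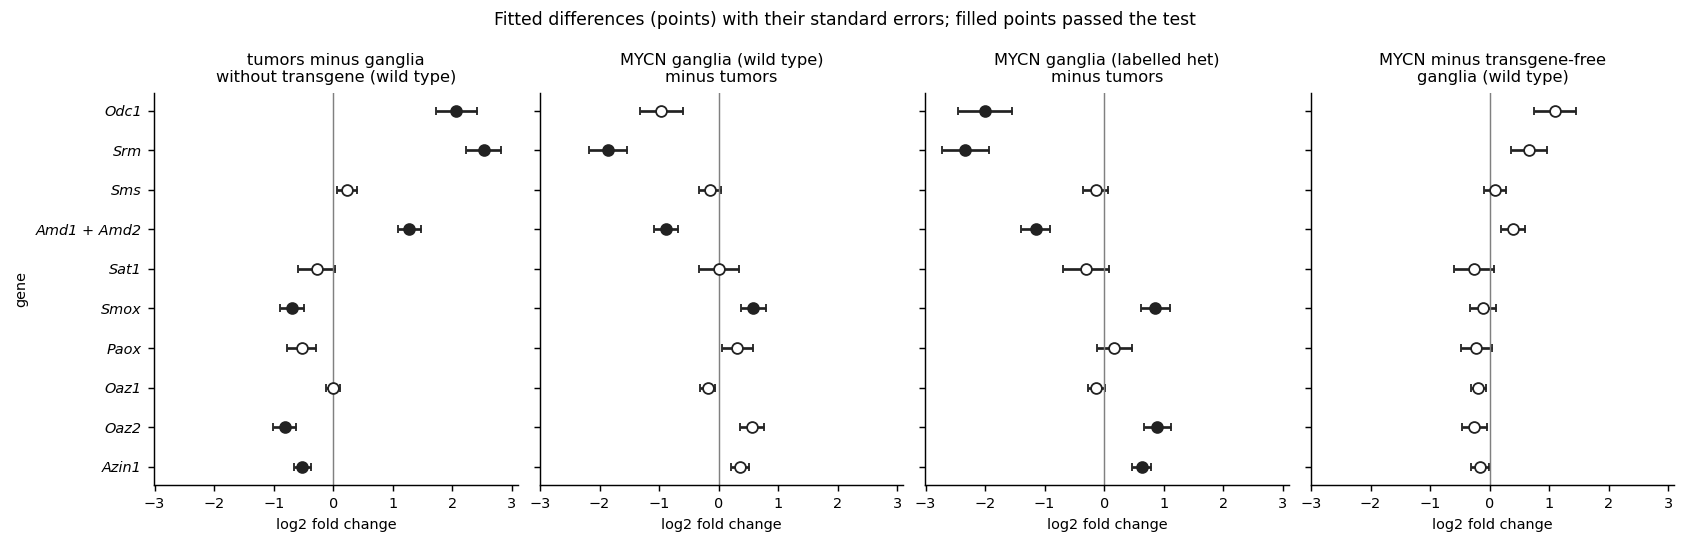
Fitted log2 fold changes (points, horizontal axes) with standard errors (bars) in 4 comparisons, with filled points for genes that passed an adjusted p of 0.05 in edgeR. Odc1, Srm and the Amd sum lie to the right of 0 in tumors and to the left in the MYCN ganglia measured against tumors, while Smox, Oaz2 and Azin1 do the reverse.

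The effect of the transgene before tumors form was measured in wild-type ganglia. None of the 10 genes passed in edgeR, where 0.936% of all genes did, and 2 had an unadjusted p under 0.05. Odc1 was 2.14-fold higher with the transgene (log2 fold change 1.10, standard error 0.355, edgeR adjusted p = 0.125), being higher than all transgene-free wild-type ganglia in 2 of the 3 libraries. Srm was 1.58-fold higher (log2 fold change 0.66, standard error 0.306, edgeR adjusted p = 0.249). The other genes had log2 fold changes from -0.27 (Sat1) to 0.09 (Sms), and that of the Amd sum was 0.39 (edgeR adjusted p = 0.306). Odc1 passed in DESeq2 (adjusted p = 0.0449), where 7.73% of all genes did. It also passed in edgeR without MYCN wild-type replicate 3 (log2 fold change 1.45, adjusted p = 0.0107), where 10.9% of all genes did. This 1 gene of 10 was near those shares. Without MYCN wild-type replicate 1 the log2 fold change of Odc1 was 0.53 (edgeR adjusted p = 0.685). Over 17 alternatives its adjusted p ran from 0.0107 to 0.685. Limma on TPM called none. Replicate 3 is the MYCN wild-type ganglion with the least proliferation RNA and the least Runx1t1, 7.90 TPM against 70.3 and 37.4 TPM in replicates 1 and 4.

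In labelled-het ganglia no difference with the transgene passed the test. None of the 10 genes passed in edgeR, DESeq2 or limma, and none had an unadjusted p under 0.05, where 0% of all genes passed in edgeR. The log2 fold change of Odc1 was 0.50 with a standard error of 0.425 (edgeR adjusted p = 1.0), ran from 0.023 to 0.79 over 15 alternatives, and was 0.79 without MYCN labelled-het replicate 1 and 0.14 without replicate 2. That of Srm was 0.11 with a standard error of 0.368 (edgeR adjusted p = 1.0). The interaction, which asks whether the effect of the transgene differs between the Runx1t1 genotypes, was -0.60 for Odc1 with a standard error of 0.560 (edgeR adjusted p = 0.884) and -0.56 for Srm with a standard error of 0.482 (edgeR adjusted p = 0.871). None of the 10 genes, and 0% of all genes, passed it in edgeR, none had an unadjusted p under 0.05, and neither DESeq2 nor limma called any of the 10. With 2 to 4 libraries a group these standard errors leave differences of the size seen undecided.

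In transgene-free ganglia the Runx1t1 genotype made no difference that passed the test for any of the 10 genes in edgeR, where 0% of all genes passed. One gene, Amd1, had an unadjusted p under 0.05 and was called by DESeq2, and this again came from the assignment of its counts in 1 library, since the Amd sum had a log2 fold change of -0.06 (edgeR adjusted p = 0.997). Limma called none. Over all 5 MYCN and all 7 transgene-free ganglia, none of the 10 genes passed in edgeR, where 0.0420% of all genes did, or in DESeq2 or limma. Odc1 alone had an unadjusted p under 0.05, with a log2 fold change of 0.80 and a standard error of 0.276 (edgeR adjusted p = 0.335). It passed without MYCN wild-type replicate 3 (log2 fold change 0.97, edgeR adjusted p = 0.0308), where 4.33% of all genes did.

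Genes around the pathway were counted from a list of 30, of which 27 passed the filter. In tumors against transgene-free wild-type ganglia, 11 were higher and 9 lower, where 27.0% and 30.7% of all genes were, so the lower count was near the share of all genes. Their median log2 fold change was 0.48, beside -0.11 over all genes. All 3 genes for supply and use of S-adenosylmethionine passed the test, 2 higher and 1 lower, with Ahcy, which clears S-adenosylhomocysteine, higher by a log2 fold change of 2.12 with a standard error of 0.336 (edgeR adjusted p = 0.000135). In methionine salvage, which recycles the methylthioadenosine left by Srm and Sms, 3 of 5 genes were higher and none lower, a count too small to set against the share of all genes. Of 4 genes for hypusine, the modification of translation factor eIF5A that is built from spermidine, 3 were higher and 1 lower. The lower one was Eif5a2, with a log2 fold change of -1.79 and a standard error of 0.220 (edgeR adjusted p = 2.2e-05). Eif5a itself, picked here after its values were seen, had a log2 fold change of 1.40 with a standard error of 0.165 (edgeR adjusted p = 1.62e-05).

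Among 7 transporters, 1 was higher and 4 lower, beside the same 27.0% and 30.7% of all genes, and no pattern of the group was tested. Slc22a3, an organic cation transporter, had the lowest log2 fold change of the list, -3.46 with a standard error of 0.672 (edgeR adjusted p = 0.000634). Its levels were low, at 0.07 to 0.48 TPM in tumors and 1.21 to 7.15 TPM in transgene-free wild-type ganglia. Of the paralogs of the 10 genes, Azin2, an antizyme inhibitor found mainly in brain and testis, was lower in tumors, with a log2 fold change of -1.87 and a standard error of 0.262 (edgeR adjusted p = 5.43e-05), and Sat2 was at -0.80 (edgeR adjusted p = 0.0263). Oaz3, the testis antizyme, was called higher but stood at a mean CPM of 0.611 in tumors and 0.119 in transgene-free wild-type ganglia, and its 0.52 to 2.76 TPM in tumors overlapped the 0.61 to 1.88 TPM of the other ganglia.

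The same list gave 6 higher and 7 lower genes in MYCN wild-type ganglia against tumors, where 20.5% and 14.0% of all genes were higher and lower. In MYCN labelled-het ganglia against tumors it gave 8 higher and 6 lower genes, where 23.5% and 22.0% of all genes were. The 6 higher genes in the first and the 6 lower in the second were near those shares. Slc22a3 (2.71 and 2.87), with the low tumor levels given above, had the highest log2 fold change among those called in both. Azin2 stood at 1.39 and 2.19. Among those lower, Ahcy was at -1.19 in wild-type and -1.76 in labelled-het ganglia, and Mri1 of methionine salvage at -1.40 and -1.54. In the comparisons among ganglia none of the 27 genes passed in edgeR.

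The genes most like Odc1 over the 16 libraries, by Pearson correlation of log2 CPM among 14686 genes with a mean of at least 1 TPM, were Cenpm (0.986), Cdk4 (0.982), Skp2 (0.981), Cnot6 (0.981) and Nup205 (0.981). Over the 12 ganglia alone these correlations were 0.965, 0.974, 0.969, 0.976 and 0.968. Of the other polyamine genes, Srm was at 0.917, Oaz2 at -0.92 and Azin1 at -0.823. Over the 12 ganglia alone these were weaker, at 0.836, -0.817 and -0.614. The genes most like Sat1 were Tmed5 (0.851), Fam46a (0.847), Arhgap6 (0.845), Krcc1 (0.839) and Nfkbiz (0.8289). Libraries share tissue within groups, so these values are descriptions. The mouse Mycn gene was at 36.5, 8.90, 11.98 and 9.30 TPM in tumors and 26.2 to 67.6 TPM in ganglia, and Myc at 1.79 to 3.83 TPM in tumors and 12.97 to 46.2 TPM in ganglia. Mycn was below all ganglia in 3 of the 4 tumors, and Myc in all 4.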

How the data were processed

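RNA-Seq was analysed from 12 celiac ganglia and 4 tumors. The authors aligned paired 100-base reads from a stranded total RNA kit to mm10 with STAR, sorted alignments with SAMtools and quantified genes with RSEM, whose expected counts and TPM they deposited as 2 tables with 1 column per library. Whether strand was used in counting is not given in the sources used here. Column headers call Runx1t1 Het or Hom, and Hom was read as homozygous wild type from the matching sample labels. The 10 genes, the wider list and the marker lists were chosen with earlier results of these data known.

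Expected counts were rounded, filtered (filterByExpr), scaled by TMM and fitted in all 5 groups together with edgeR 4.0.16 (R 4.3.3, quasi-likelihood test, Benjamini-Hochberg over 16665 genes, adjusted p under 0.05). There were 9 comparisons. Of the 24411 genes, 4507 were at 0 in every library. TPM, as deposited, gave levels and ratios. Alternatives were upper-quartile scaling, no filter, a minimum of 10 counts in every library, terms for replicate, depth or sex, a minimum log2 fold change of 1, only the groups compared, all transgene-free ganglia as the control, DESeq2 1.42.0, limma 3.58.1 on log2(TPM + 1) and leaving out each library. Replicate numbers were taken to pair libraries where all of 3 or more same-numbered pairs had a correlation of deviations from their group means over 0.1, which held for tumors and transgene-free wild-type ganglia (0.172, 0.319, 0.215 and 0.148), with no label that ties the numbers to a shared animal or day. The code was tested on simulated data. Named genes were the 10 genes, the 3 highest and 3 lowest called of the wider list, paralogs, and the 5 genes most like Odc1 and Sat1. 1 gene that the rule names is not reported here. Positions are from GENCODE vM21 and promoter sequences from RefSeq (GRCm38.p6).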

Additional observations from a re-analysis of the deposited data

Results flagged for a closer look

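In each group of 4 libraries, the highest and lowest values were checked on the scale of log2(CPM + 1) for a library far from the others. The 10 polyamine genes and the Amd sum made 22 groups in all. Of these, Amd1 alone in transgene-free wild-type ganglia, at a CPM of 0 in every library, could not be checked. Chance alone flags about 1 in 20 groups, and 2 stood out. Srm in tumor replicate 1, at a CPM (counts scaled to library size) of 77.1, was the lowest tumor, and its gap to the next tumor took up 0.858 of the range of the group on that log scale. Sat1 in tumor replicate 2, at a CPM of 69.7, was the highest tumor, with a gap of 0.848 of the range on the same scale. Tumor replicate 1 was also the tumor nearest to the transgene-free wild-type mean for Odc1, Smox, Oaz2, Azin1 and the Amd sum. It had the most mouse Mycn of the tumors (36.5 TPM).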

How the results depend on the processing

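Each fold change of the 9 polyamine genes other than Amd1 was refitted under every alternative except the minimum log2 fold change, which is given only as counts of genes. Of 1440 such values over 81 results, 1405 stayed on their side of the threshold, 24 gained a call, 11 lost one and 0 reversed a called direction. Changes of sign between values that were never called count among the 1405. In tumors against transgene-free wild-type ganglia, 5 genes passed in the main analysis, where 57.7% of all genes did. With a minimum log2 fold change of 1, 2 passed, where 40.7% of all genes did. In MYCN wild-type ganglia against tumors, where 2 passed, the number was 3 with no filter on low counts, 4 with upper-quartile scaling, 5 with at least 10 counts in every library, 4 with a depth term, 1 with a sex term, 1 with a minimum log2 fold change of 1, 1 with only the groups compared, 6 with DESeq2 and 4 with limma on TPM, and it ran from 1 to 5 with single libraries left out. The share of all genes called moved too, from 21.3 to 42.1% over these settings. In MYCN labelled-het ganglia against tumors, where 5 passed, it was 2 with a minimum log2 fold change of 1. It stayed at 5 with any 1 tumor left out. In that comparison 45.5% of all genes passed in the main analysis, 34.2% with that minimum and 42.2 to 45.8% without a tumor. Without either labelled-het ganglion, which leaves a lone library, fewer of the polyamine genes passed, and the share of all genes fell too. MYCN against transgene-free wild-type ganglia gave 1 gene with DESeq2, where 7.73% of all genes passed. It gave 0 to 1 with single libraries left out, where 0 to 10.9% of all genes passed. All MYCN against all transgene-free ganglia gave 0 to 1, the 1 being without MYCN wild-type replicate 3, where 4.33% of all genes passed. Runx1t1 het against wild-type gave 1 gene with DESeq2, Amd1, in both MYCN and transgene-free ganglia. The cause of these changes was not tested, except that a minimum fold change asks for more and fewer groups leave fewer libraries to estimate the spread.

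Over all genes, MYCN against transgene-free wild-type ganglia went from 156 genes to 0 with only the groups compared, 1289 with DESeq2, 16 with limma, 50 with a sex term, 308 with a depth term, 238 with upper-quartile scaling, and 0 to 1811 with single libraries left out, 1811 being without MYCN wild-type replicate 3 (675 without transgene-free wild-type replicate 2). All MYCN against all transgene-free ganglia went from 7 to 18 with upper-quartile scaling and to 358 with DESeq2. The count was 720 without MYCN wild-type replicate 3 and 192 without transgene-free wild-type replicate 2. It fell to 0 with a depth term, only the groups compared, limma, or without any transgene-free labelled-het library. Without MYCN labelled-het replicate 1 the count rose and without replicate 2 it fell, where each fit leaves a lone library in that group. Runx1t1 het against wild-type in MYCN ganglia went from 2 to 271 with DESeq2 and to 320 without MYCN wild-type replicate 3. It fell to 0 with a depth or sex term, only the groups compared, or without MYCN wild-type replicate 1 or 4. MYCN wild-type ganglia against tumors fell from 5755 to 3549 without MYCN wild-type replicate 3 and to 3614 with a minimum log2 fold change of 1. MYCN labelled-het ganglia against tumors fell from 7582 to 4313 without labelled-het replicate 1.

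Of 25 pairs of libraries that share a replicate number across groups, 7 had a correlation of their deviations from the group means over 0.1 (range -0.315 to 0.319, median -0.0143), against 16 of 76 pairs with different numbers. All 4 pairs of tumors and transgene-free wild-type ganglia were over it. In the other comparisons with 3 or more pairs, at least 1 pair was not over 0.1, and the libraries share only a number. With a replicate block, 5 polyamine genes passed in tumors against transgene-free wild-type ganglia, where 55.8% of all genes did. Against tumors, 1 passed in MYCN wild-type ganglia (30.2% of all genes) and 5 in MYCN labelled-het ganglia (45.5%). None passed in the other comparisons, and genes called in MYCN against transgene-free wild-type ganglia went from 156 to 0. In tumors against transgene-free wild-type ganglia, where the numbers met the rule for pairs, the block changed no call of the 9 genes other than Amd1.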
